A study of Mus musculus with 12 samples.

Results

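Chromatin accessibility was examined at 36 interferon-stimulated genes of the mouse: transcription factors of the interferon response, sensors of foreign nucleic acid, antiviral effectors, modifier proteins, feedback brakes and a few other induced genes. The list is one of gene names, and the rule uses names and positions, not measured values. A peak of the deposited count table was counted as theirs when the nearest protein-coding gene span to the peak's midpoint belonged to one of them, within 50 kb. By that rule 30 of the 36 genes held 117 of the 68689 peaks. Of these 117, 43 were centered no more than 1 kb from an end of some protein-coding gene (gene-end peaks), 31 lay elsewhere inside a gene and 43 were intergenic. Ifit1, Ifit3, Mx1, Mx2, Oas1a and Eif2ak2 held no assigned peak. Mx1 and Mx2 are annotated as transcribed pseudogenes in the gene table used, so no peak could be given to either.

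The libraries are bulk ATAC-seq, in which a transposase cuts open DNA and the number of fragments in a peak measures its accessibility. The donors were C57BL/6 mice of 8 to 10 weeks of age, and the spleen gave 2 populations labelled CB and CC, the usual abbreviations for the centroblasts and centrocytes of the germinal center. The WT group is Pbrm1+/+ and the HOMO group is Pbrm1-/-, with 3 libraries for each genotype in each population and 12 in all. The column names of all 12 libraries, WT and HOMO, begin with Pbrm1AID, and what AID stands for was not established here. Beyond that term, the labels do not say in which cells Pbrm1 is deleted or what else both genotypes may carry. Nor do they say whether libraries come from separate mice, so p-values measure the spread between these libraries. Pbrm1 encodes the bromodomain subunit that defines PBAF, a form of the SWI/SNF complex that moves nucleosomes. The comparisons ask how accessibility at the interferon-stimulated genes differs between HOMO and WT in each population, and between the 2 populations within each genotype.

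Type I and type III interferons bind receptors that activate the kinases Jak1 and Tyk2, which phosphorylate Stat2. A complex that holds Stat2 and Irf9 then binds the interferon-stimulated response element in the promoters of these genes. Many of the genes are kept at a low level in unstimulated cells, and B cells use members of the same IRF family during the germinal center reaction.

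Library totals ran from 6431354 counts (HOMO CC replicate 1) to 45590454 (HOMO CB replicate 3), and the 2 HOMO libraries numbered 1 were the shallowest. The 2 WT libraries numbered 2 stood apart at a peak inside Xist, with 0.458 CPM (the count of a peak relative to the TMM-scaled total of its library) in CB and 0.782 in CC against 4.73 to 17.2 in the 10 others. Without these 2 libraries 4 member peaks were called between genotypes in CB and 0 in CC, against 8 and 7 with them. With the same 2 libraries left out, 2.42% of all peaks were called in CB and 0.473% in CC. The germinal center B cell markers fixed for the check (6 of 6 genes) and the B cell markers (5 of 5) all held peaks. Their sums moved with genotype: the germinal center list had 1047 to 1060 CPM in WT CB against 1132 to 1191 in HOMO CB, and 945 to 963 in WT CC against 1044 to 1142 in HOMO CC. The B cell list had 1110 to 1138 against 1204 to 1226 CPM in CB, and 1014 to 1051 against 1071 to 1243 in CC. Peaks were also assigned to some markers of other cells, namely 3 of 6 T cell genes, 4 of 5 myeloid genes, 2 of 4 natural killer genes, 3 of 3 plasmacytoid dendritic cell genes and 4 of 4 plasma cell genes. Cd3g, Cd8a, Trac, Lyz2, Klrd1 and Gzma held no peak. The only gene-end peak of the myeloid list, at Cd14, moved with genotype: it had 2.95 to 3.76 CPM in WT CB against 0.976 to 1.96 in HOMO CB, and 3.02 to 5.12 in WT CC against 1.41 to 1.77 in HOMO CC. Summed over all 15 myeloid-list peaks, WT and HOMO overlapped (103 to 123 against 114 to 116 CPM in CB, and 121 to 153 against 138 to 164 in CC). The gene-end peaks of the 4 plasma cell genes summed to 176 to 178 CPM in WT CB against 158 to 173 in HOMO CB, and to 160 to 166 in WT CC against 148 to 156 in HOMO CC. Over all 31 plasma cell peaks the groups overlapped (487 to 504 against 449 to 502 CPM in CB, and 431 to 463 against 394 to 453 in CC). The part of these cell types in the differences below was not tested. In bulk libraries, fewer cells with an open site and less opening per cell cannot be told apart.

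The promoters of several of the genes carry the response element that the complex with Irf9 binds. The search used the core GAAANNGAAA on both strands (TTTCNNTTTC on the other), with overlapping matches allowed, in windows from 250 bases before to 50 bases after each start of RefSeq on GRCm38.p6, the build that mm10 also names. Of the 36 genes 27 were in that table, and 16 of the 27 held the core, in 16 of their 33 windows (48.5%), against 3.44% of all 32851 windows. The 250 bases before the start are shown for Isg15, Rsad2 and Socs1. Isg15 is the ubiquitin-like modifier with 3 overlapping cores, and the Rsad2 start peak fell in both populations. The Socs1 start was the most accessible of all and did not pass the test. The Socs1 peak (chr16:10784958-10785458) lies after the start and does not overlap the bases shown. Capitals mark the core, and each run is written 5′ to 3′ on the strand of the gene (all 3 lie on the minus strand, at chr4:156200819-156201068, chr12:26456453-26456702 and chr16:10785537-10785786).
Isg15: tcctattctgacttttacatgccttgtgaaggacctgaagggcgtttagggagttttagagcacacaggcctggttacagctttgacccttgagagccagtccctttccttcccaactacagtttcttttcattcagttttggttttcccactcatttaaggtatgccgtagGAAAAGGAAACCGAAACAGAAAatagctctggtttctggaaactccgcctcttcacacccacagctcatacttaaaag
Rsad2: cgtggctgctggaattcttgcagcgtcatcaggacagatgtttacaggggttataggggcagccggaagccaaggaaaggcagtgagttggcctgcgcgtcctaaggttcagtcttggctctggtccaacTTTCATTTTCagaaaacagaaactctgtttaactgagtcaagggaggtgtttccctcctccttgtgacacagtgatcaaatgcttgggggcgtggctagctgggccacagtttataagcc
Socs1: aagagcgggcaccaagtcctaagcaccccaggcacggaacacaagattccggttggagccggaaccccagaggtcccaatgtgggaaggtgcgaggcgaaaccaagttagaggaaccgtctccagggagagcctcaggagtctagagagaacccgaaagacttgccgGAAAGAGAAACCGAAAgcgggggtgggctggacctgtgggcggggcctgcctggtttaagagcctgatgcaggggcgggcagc

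For other members with an open start, 30 bases around the core are shown, again on the strand of the gene and with the core in capitals. In Ddx58 and Ifih1 the core lies after the start (bases 3 to 12 and 33 to 42), and in Bst2, Gbp2, Gbp3 and Oas3 before it. The most open gene-end peaks of Gbp2 and Gbp3 do not overlap the bases shown for them.
Ddx58: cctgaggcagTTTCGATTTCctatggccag
Ifih1: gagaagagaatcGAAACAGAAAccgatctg
Bst2: attccagGAAAATGAAACTGAAAggctgca
Gbp2: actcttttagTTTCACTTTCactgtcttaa
Gbp3: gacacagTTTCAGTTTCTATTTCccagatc
Oas3: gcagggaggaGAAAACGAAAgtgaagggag

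Start peaks were called with and without the core. Of 11 member peaks within 500 bp of an annotated start whose windows held the core, 1 fell in CB and 2 in CC. Of 11 such peaks without it, 1 fell in CB and 1 in CC. Among other genes, 10.6% of 340 start peaks with the core and 8.40% of 9368 without it were lower in HOMO CB, and 3.82% and 4.84% in HOMO CC. The core was sought in the promoter window, and it need not lie within the peak, as at Socs1. A match is a description of the letters and not a measured binding site.

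In CB, 8 of the 117 member peaks fell in HOMO and none rose, where a call is an adjusted p under 0.05 (Benjamini-Hochberg, over all 68689 peaks) in the quasi-likelihood test of edgeR. They belong to Irf1 (2 peaks), Ddx58, Usp18, Rsad2, Xaf1, Dtx3l and Dhx58. Over all peaks 3.85% were called lower and 0.779% higher in CB. That background is not matched for peak class. Gene-end peaks, 43 of the 117 and 16106 of the 68689, were called lower more often (9.17% in CB and 5.58% in CC). At an unadjusted p under 0.05, 20 member peaks were lower and 4 higher, against 8566 and 4984 of all 68689 peaks. All 3 HOMO libraries lay below all 3 WT libraries at 18 of the 117, and at 13.2% of all peaks. The median log2 fold change of the 117 was −0.05, against 0.01 over all peaks. With both WT libraries numbered 2 left out, the calls at the second Irf1 peak, Xaf1, Dtx3l and Dhx58 were lost (adjusted p = 0.0835, 0.0592, 0.116 and 0.0820), and the others were kept.

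In CC, 6 of the 117 fell in HOMO and 1 rose, where 2.17% of all peaks were called lower and 0.578% higher. Those that fell belong to Rsad2 (2 peaks), Xaf1, Ddx58, Usp18 and Irf1, and the peak that rose lies near Ifitm3. The HOMO libraries were all below the WT libraries at 20 of the 117, and at 11.2% of all peaks. The median was −0.03 against 0.02 over all peaks. With both WT libraries numbered 2 left out, all 7 calls were lost, with adjusted p from 0.0637 at Ddx58 to 0.120 at Irf1. Fitted with only the 6 CC libraries, the call at Xaf1 was kept and the other 6 were lost, with adjusted p from 0.0503 at Usp18 to 0.0705 at the Rsad2 start. Peaks of Ddx58, Usp18, Rsad2, Xaf1 and Irf1 were called in both populations, although for Ddx58 and Usp18 a different peak of the gene was called in each. CB and CC libraries of the same number and genotype deviated together, so the populations are not independent repeats of each other.

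Member gene-end peaks lay close to other gene-end peaks of like accessibility. Gene-end peaks as a class were lower in HOMO, with 9.17% of all 16106 called lower in CB and 5.58% in CC. Of the 43 member gene-end peaks, 3 fell in CB and 4 in CC, and none rose. The HOMO libraries were all below the WT libraries at 8 of the 43 in CB and 11 in CC, against 25.9% and 21.9% of all gene-end peaks. Their median log2 fold change was −0.16 in CB and −0.13 in CC, against −0.11 and −0.07 over all gene-end peaks. Relative to the median of the other gene-end peaks in the same bin of mean CPM (bins 1 wide on the log2 scale), the members' median was 0.04 in CB and 0.02 in CC, and 20 and 17 of the 43 lay below their bin's median.

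The gene-end peaks that fell in CB were weakly open. Of the 18 gene-end peaks with a mean under 10 CPM, 3 fell in CB and 3 in CC, with medians of −0.39 and −0.22, against −0.25 and −0.25 for the 4137 other gene-end peaks under that level, of which 537 were called lower in CB and 381 in CC. Of the 25 at or above 10 CPM, none fell in CB and 1 in CC, with medians of −0.07 and −0.07, against −0.09 and −0.04 for the 11926 others, of which 937 and 514 were called lower. No test of members against the other gene-end peaks was made.

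**Figure D1:**
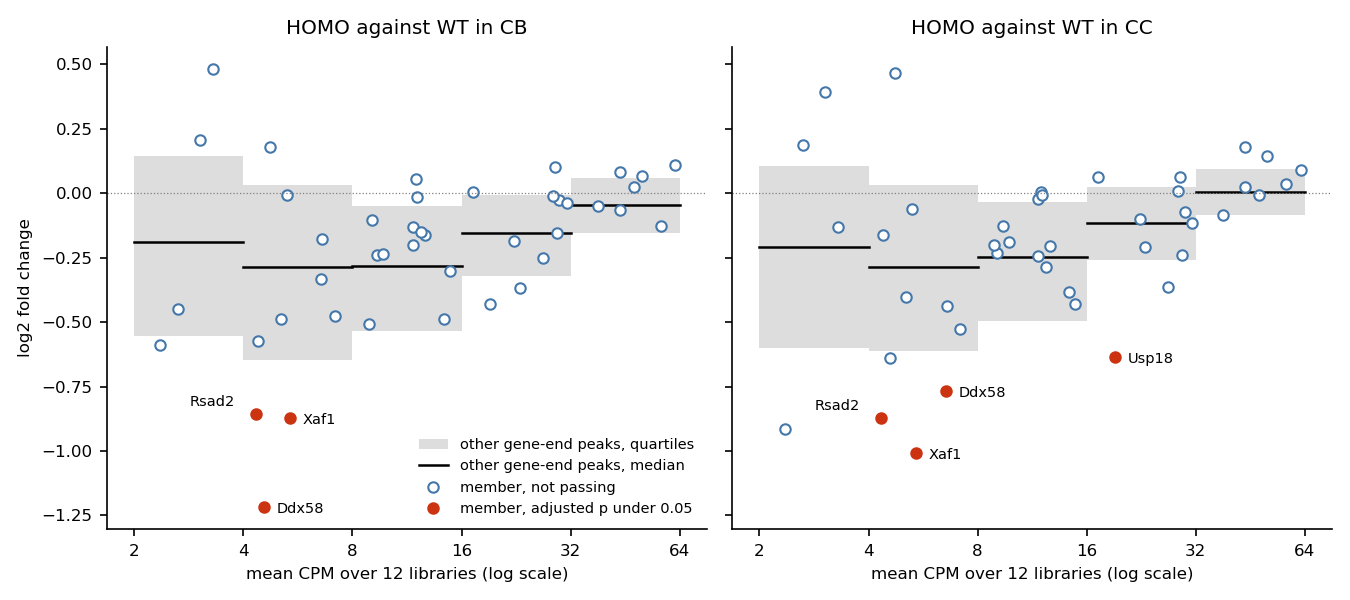
Log2 fold change of the 43 member gene-end peaks, HOMO against WT, in CB (left) and CC (right), by mean CPM over 12 libraries (log scale). Black lines and grey boxes give the median and quartiles of the other gene-end peaks in the same bin; filled red points passed the test. The filled points are Rsad2, Xaf1 and Ddx58 in both panels (for Ddx58 a different peak in each) and Usp18, at 19.2 CPM, in CC.

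Among the transcription factors, the start of Irf1 did not pass the test while peaks far downstream of it fell. Irf1 is induced by interferon gamma and switches on other members. Its start peak (chr11:53769657-53770157) had 50.9, 48.4 and 50.5 CPM in WT CB and 56.8, 49.7 and 51.3 in HOMO CB, with a log2 fold change of 0.07 ± 0.0885 (SE, adjusted p = 0.735). In CC it had 47.0, 47.2 and 46.6 CPM in WT and 46.9, 53.3 and 54.5 in HOMO, with 0.14 ± 0.0886 (adjusted p = 0.431). The groups overlapped in both populations.

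A peak 24497 bp downstream of the Irf1 start, 16596 bp beyond the end of the gene (chr11:53794720-53795220), fell in both populations. It had 27.1, 22.2 and 25.1 CPM in WT CB against 17.2, 15.03 and 13.8 in HOMO CB, a log2 fold change of −0.72 ± 0.132 (adjusted p = 0.00523). In CC the WT libraries had 28.0, 26.9 and 23.6 CPM and the HOMO libraries 20.8, 18.4 and 16.1, a change of −0.52 ± 0.132 (adjusted p = 0.0349). All 6 HOMO libraries lay below all 6 WT libraries, as at 8 of the 117 member peaks and at 3.42% of all peaks. The CB call held in each alternative tried, including the omission of any library. The CC call was lost without WT CC replicate 1 or 2 (adjusted p = 0.140 and 0.105), HOMO CC replicate 2 or 3 (0.180 and 0.190), WT CB replicate 1 (0.0523) or HOMO CB replicate 2 (0.0527).

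A second Irf1 peak, 50183 bp downstream of the start (chr11:53820406-53820906), fell in CB. It had 14.5, 13.5 and 11.4 CPM in WT CB and 9.17, 8.79 and 7.17 in HOMO CB, a change of −0.66 ± 0.166 (adjusted p = 0.0263). In CC, WT had 12.4, 13.4 and 10.5 CPM and HOMO 8.87, 8.94 and 7.32, with −0.54 ± 0.167 (adjusted p = 0.0836), which did not pass, although the groups did not overlap. The CB call was lost without WT CB replicate 1 or 2 (adjusted p = 0.135 and 0.0657) or HOMO CB replicate 2 or 3 (0.102 and 0.149).

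The 7 Irf1 peaks downstream of the start peak had log2 fold changes from −0.72 to 0.21 in CB and from −0.70 to 0.08 in CC. Of these 7, 6 were negative in CB and 6 in CC. The 5 that lie more than 20 kb downstream were all negative, up to −0.12 in CB and −0.34 in CC. The 7 upstream peaks ran from −0.40 to 0.50 in CB and from −0.10 to 0.38 in CC, and none passed. One of them, 11858 bp upstream, was the only member peak with all 6 HOMO libraries above all 6 WT libraries (3.09 to 4.15 CPM in WT CB, 4.72 to 5.23 in HOMO CB, 3.34 to 3.91 in WT CC and, in HOMO CC, a mean of 4.91 ± 0.624, SD, n = 3), as at 1.24% of all peaks. Its changes of 0.50 and 0.38 did not pass (adjusted p = 0.170 and 0.349). The rule gives these distal peaks to Irf1 by distance alone.

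**Figure D2:**
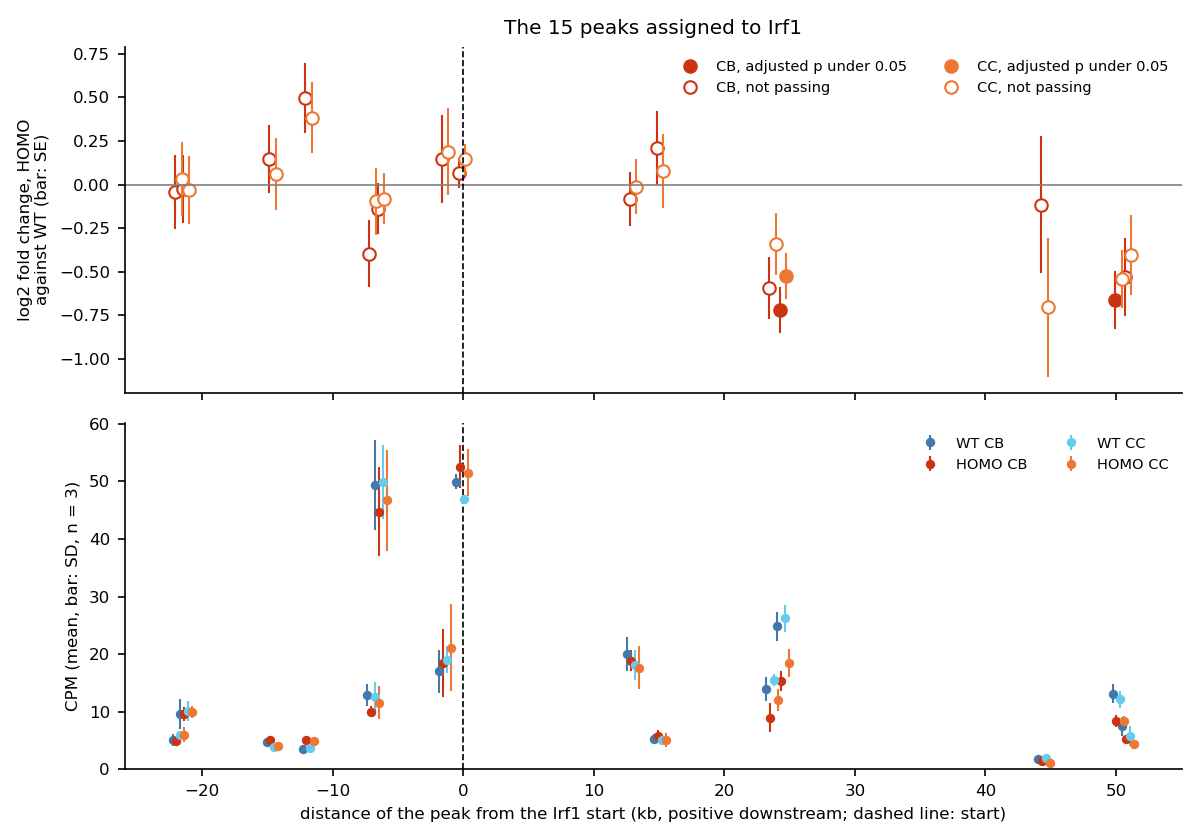
Peaks assigned to Irf1 by distance from its start in kb. Top, log2 fold change of HOMO against WT with its SE in CB (dark red) and CC (orange), filled where the test was passed. Bottom, mean CPM and SD of 3 libraries in each group. The start peak, near 50 CPM in every group, did not pass the test, and the filled points at 24.5 and 50.2 kb lie below 0.

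The other transcription factors did not pass at any peak. Irf7, the factor that amplifies type I interferon production, had 54.2 to 70.9 CPM in WT CB and 45.4 to 61.8 in HOMO CB at its start (−0.13 ± 0.137, adjusted p = 0.661), and its 3 peaks ran from −0.13 to −0.00 in CB and from 0.01 to 0.09 in CC. Irf9, the DNA-binding subunit of its complex with Stat2, had a mean of 40.3 CPM in WT CB and 38.9 in HOMO CB (−0.05 ± 0.124, adjusted p = 0.865). The 2 peaks assigned to Stat2 lie inside the gene, with changes of −0.13 and 0.27 in CB.

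Of the nucleic acid sensors, Ddx58, the gene of RIG-I, a sensor of viral RNA, fell at both of its gene-end peaks, one in each population. The peak centered 648 bp into the gene (chr4:40238927-40239427) had 6.54, 6.76 and 6.37 CPM in WT CB and 3.54, 2.50 and 2.74 in HOMO CB, a change of −1.22 ± 0.245 (adjusted p = 0.00836). In CC its groups overlapped, with 4.58, 6.62 and 4.41 CPM in WT and 5.18, 2.94 and 2.72 in HOMO (−0.64 ± 0.248, adjusted p = 0.175). HOMO CC replicate 1 stood above 2 of the 3 WT CC libraries. Its CB call was lost without HOMO CB replicate 2 or 3 (adjusted p = 0.0836 and 0.0549).

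The Ddx58 start peak itself (chr4:40239617-40240117) fell in CC. It had 8.62, 6.56 and 8.59 CPM in WT CC and 4.14, 4.43 and 5.15 in HOMO CC, a change of −0.77 ± 0.194 (adjusted p = 0.0355). In CB it had 8.00, 7.22 and 7.63 CPM in WT and 5.76, 5.07 and 7.24 in HOMO, where 1 HOMO library reached the WT range (−0.33 ± 0.190, adjusted p = 0.347). The CC call was lost without WT CC replicate 1 or 3 (adjusted p = 0.126 and 0.109), HOMO CC replicate 2 or 3 (0.213 and 0.0898) or WT CB replicate 1 (0.0526).

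Dhx58, which encodes the related regulator LGP2, fell at 1 of its 5 peaks in CB, inside the gene (chr11:100702938-100703438). It had 26.0, 21.8 and 22.9 CPM in WT CB and 18.7, 15.7 and 17.8 in HOMO CB, a change of −0.45 ± 0.128 (adjusted p = 0.0471). In CC the groups were again apart, at 19.7 to 22.0 and 14.7 to 18.1 CPM, but −0.29 ± 0.129 did not pass (adjusted p = 0.254). The CB call stood close to the threshold. It was lost with DESeq2's size factors (adjusted p = 0.0519), with loess normalization (0.0698), with only peaks of a mean of at least 3 CPM (0.0594), with only the 6 CB libraries (0.0700) and on omission of 9 of the 12 libraries, with adjusted p from 0.0520 without HOMO CC replicate 3 to 0.250 without HOMO CB replicate 2, and kept without WT CC replicate 3, HOMO CB replicate 1 or HOMO CC replicate 1.

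Zbp1, a sensor of Z-form nucleic acid, had 27.0, 28.2 and 22.8 CPM in WT CB and 19.0, 20.7 and 20.2 in HOMO CB at its most open gene-end peak. Its changes of −0.37 ± 0.120 in CB and −0.21 ± 0.120 in CC did not pass (adjusted p = 0.0813 and 0.393), although all 6 HOMO libraries lay below all 6 WT libraries. Ifih1, which encodes the RNA sensor MDA5, had a mean of 32.9 CPM in WT CB and 32.1 in HOMO CB at its start (−0.04 ± 0.106, adjusted p = 0.884). Its other 6 peaks ran from −0.77 to 0.63 in CB and none passed.

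Among the antiviral effectors, Rsad2, which encodes viperin, an enzyme that makes a chain-terminating nucleotide, fell at its start in both populations. The start peak (chr12:26456198-26456698), which overlaps the sequence shown above, had 6.10, 5.04 and 5.80 CPM in WT CB and 3.27, 3.34 and 2.89 in HOMO CB, a change of −0.86 ± 0.214 (adjusted p = 0.0262). In CC it had 7.14, 4.57 and 4.91 CPM in WT and 2.96, 2.76 and 3.22 in HOMO, a change of −0.87 ± 0.218 (adjusted p = 0.0343). No HOMO library reached any WT library in either population. The CB call was lost without WT CB replicate 1 or 3 (adjusted p = 0.109 and 0.0657) or HOMO CB replicate 2 or 3 (0.112 and 0.131). The CC call was lost without any 1 of 7 libraries, with adjusted p from 0.0503 without WT CC replicate 3 or HOMO CB replicate 2 to 0.221 without HOMO CC replicate 2 (0.171, 0.106, 0.0523 and 0.0505 without WT CC replicate 1, HOMO CC replicate 3, WT CC replicate 2 and WT CB replicate 1).

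A peak 3796 bp upstream of the Rsad2 start (chr12:26459998-26460498) also fell in CC. It had 5.74, 4.27 and 2.19 CPM in WT CC and 1.77, 1.60 and 1.37 in HOMO CC, a change of −1.36 ± 0.343 (adjusted p = 0.0356). WT CC replicate 1 was the highest by far and replicate 3 lay close to the HOMO range. In CB the groups overlapped, with 2.16 to 4.01 CPM in WT and 1.59 to 2.62 in HOMO (−0.42 ± 0.337, adjusted p = 0.531). The CC call was lost without WT CC replicate 1 or 2 (adjusted p = 0.179 and 0.102), HOMO CC replicate 2 or 3 (0.185 and 0.162), WT CB replicate 1 (0.0541) or HOMO CB replicate 2 (0.0518), and with limma-voom (0.0547).

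Cmpk2, the neighbor of Rsad2 that encodes a nucleotide kinase and is not itself one of the 36 genes, fell 674 bp into the gene in CB (chr12:26469639-26470139). It had 11.6, 9.28 and 7.36 CPM in WT CB and 4.32, 4.37 and 4.04 in HOMO CB, a change of −1.15 ± 0.245 (adjusted p = 0.0112). That call was lost without WT CB replicate 1 (adjusted p = 0.0877) or HOMO CB replicate 2 or 3 (0.0784 and 0.0661).

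The oligoadenylate synthetase family, named for enzymes whose product activates an RNA-degrading nuclease, did not pass at any of 12 peaks. At the Oasl2 start, WT CB had 4.98, 4.01 and 5.47 CPM and HOMO CB 5.24, 3.09 and 2.44, with overlap (−0.57 ± 0.258, adjusted p = 0.220). The Oas3 start was the least open leading gene-end peak, at 1.15 to 3.12 CPM in WT CB and 1.19 to 3.14 in HOMO CB, and −0.59 ± 0.457 did not pass (adjusted p = 0.517). The Oasl1 start, at 12.1 CPM on average, had −0.01 ± 0.213 in CB and −0.01 ± 0.211 in CC.

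Isg20, an exonuclease that degrades viral RNA, had a start peak with 29.2, 28.6 and 28.5 CPM in WT CB and 25.9, 20.8 and 26.1 in HOMO CB. In CC it had 32.4, 30.8 and 28.6 CPM in WT and 21.1, 22.8 and 26.5 in HOMO. The HOMO libraries lay below the WT libraries throughout, but the changes of −0.25 ± 0.118 and −0.36 ± 0.118 did not pass (adjusted p = 0.240 and 0.101). A second Isg20 peak, 233 bp outside the gene, showed the same separation, but changes of −0.51 ± 0.161 and −0.20 ± 0.159 did not pass in CB and CC (adjusted p = 0.0739 and 0.565). All 6 HOMO libraries below all 6 WT libraries was seen at 5 of the 43 member gene-end peaks (2 of Isg20, and 1 each of Rsad2, Xaf1 and Zbp1) and at 8.61% of all gene-end peaks.

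The leading gene-end peaks of the remaining effectors did not pass. Bst2, which tethers budding virions, had 41.8, 40.4 and 52.5 CPM in WT CB and 33.5, 42.1 and 52.0 in HOMO CB (−0.07 ± 0.132, adjusted p = 0.836). Ifit2, which binds foreign RNA, had means of 11.6 and 10.7 CPM (−0.13 ± 0.164, adjusted p = 0.716). The guanylate-binding proteins Gbp2 and Gbp3, GTPases that act on pathogen vacuoles, had log2 fold changes of −0.24 ± 0.163 and 0.10 ± 0.122 in CB. The 3 peaks of Ifitm2, a membrane protein that hinders viral fusion, ran from −0.18 to 0.21 in CB and from −0.44 to 0.39 in CC.

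Ifitm3, a membrane protein of the same kind, was the only gene whose peak rose in HOMO. The peak lies 9213 bp downstream of the annotated start, 8059 bp beyond the gene (chr7:141001281-141001781). It had 8.15, 6.92 and 9.82 CPM in WT CC and 11.5, 13.2 and 14.8 in HOMO CC, a change of 0.68 ± 0.154 (adjusted p = 0.0224). In CB it had 18.8, 21.5 and 18.4 CPM in WT and 21.3, 25.3 and 25.9 in HOMO, with overlap (0.33 ± 0.144, adjusted p = 0.208). The CC call was lost without WT CC replicate 1 or 2 (adjusted p = 0.0848 and 0.0977) or HOMO CC replicate 2 or 3 (0.131 and 0.128). The gene-end peak of Ifitm3, at 11.9 CPM on average, had 0.05 ± 0.142 in CB and 0.00 ± 0.145 in CC.

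Of the modifier genes, Isg15, the ubiquitin-like protein attached to other proteins during the response, had a start peak with 4.83, 5.38 and 6.60 CPM in WT CB and 2.49, 4.07 and 4.87 in HOMO CB. In CC the WT libraries had 5.82, 6.26 and 6.76 CPM and the HOMO libraries 3.55, 5.14 and 5.13. HOMO was lower on average, and in CC the groups were apart, but neither −0.49 ± 0.224 nor −0.40 ± 0.222 passed (adjusted p = 0.230 and 0.368).

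Dtx3l, a ubiquitin ligase, fell in CB at a peak 7657 bp beyond the gene (chr16:35918608-35919108). It had 8.68, 8.59 and 5.87 CPM in WT CB and 5.76, 3.85 and 3.16 in HOMO CB, a change of −0.93 ± 0.244 (adjusted p = 0.0330). In CC it had 7.61, 6.44 and 5.50 CPM in WT and 4.88, 4.06 and 3.01 in HOMO, also apart, with −0.76 ± 0.248 (adjusted p = 0.101). The CB call was lost without WT CB replicate 1 or 2 (adjusted p = 0.154 and 0.0896) or HOMO CB replicate 2 or 3 (0.171 and 0.183).

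The leading gene-end peaks of the modifier genes did not pass. Dtx3l had 29.3 CPM on average at its start, with −0.16 ± 0.117 in CB and −0.24 ± 0.118 in CC. Parp9 encodes its partner in a complex that reads ADP-ribose, and the neighboring peak assigned to it, within 1 kb of the Dtx3l start, had 43.8 CPM, with 0.08 ± 0.0899 and 0.18 ± 0.0903. Of the 3 gene-end peaks of Parp14, an ADP-ribosyltransferase, the leading one had 17.7, 20.6 and 13.9 CPM in WT CB and 15.3, 11.2 and 11.2 in HOMO CB, and −0.49 ± 0.185 did not pass (adjusted p = 0.137). Trim25, the ligase that activates RIG-I, held 1 intergenic peak, at 1.94 CPM on average.

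Of the brakes, Usp18, which removes Isg15 from proteins and blocks the type I receptor, fell at different peaks in the 2 populations. A peak inside the gene (chr6:121251257-121251757) had 5.76, 4.70 and 4.41 CPM in WT CB and 2.49, 2.28 and 2.56 in HOMO CB, a change of −1.03 ± 0.206 (adjusted p = 0.00831). In CC it had 6.44, 6.20 and 5.57 CPM in WT and 5.03, 4.13 and 4.23 in HOMO, also apart, with −0.47 ± 0.197 (adjusted p = 0.219). This CB call was lost without WT CB replicate 1 (adjusted p = 0.0642) or HOMO CB replicate 2 (0.0787).

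The Usp18 gene-end peak (chr6:121245537-121246037), 119 bp outside the gene, fell in CC. It had 24.0, 19.0 and 20.03 CPM in WT CC and 17.0, 11.8 and 12.8 in HOMO CC, a change of −0.64 ± 0.152 (adjusted p = 0.0287). In CB it had 25.03, 25.4 and 21.4 CPM in WT and 21.0, 17.1 and 15.9 in HOMO, apart but not past the threshold (−0.43 ± 0.149, adjusted p = 0.101). The CC call was lost without WT CC replicate 1 or 2 (adjusted p = 0.136 and 0.0542) or HOMO CC replicate 2 or 3 (0.229 and 0.131).

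Socs1, the inhibitor of Jak kinases, held the most accessible start of all the members and did not pass at any of its 8 peaks. The start peak (chr16:10784958-10785458) had 60.7, 58.0 and 64.7 CPM in WT CB and 64.8, 68.9 and 64.5 in HOMO CB (0.11 ± 0.0887, adjusted p = 0.528). The CC libraries had 58.4, 56.7 and 62.8 CPM in WT and 56.0, 65.4 and 67.2 in HOMO (0.09 ± 0.0888, adjusted p = 0.655). The 8 peaks ran from −0.36 to 0.11 in CB and from −0.34 to 0.09 in CC.

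Xaf1, a cell death factor induced by interferon, held 1 peak, at its start (chr11:72301329-72301829), and it fell in both populations. It had 6.98, 5.50 and 6.17 CPM in WT CB and 3.67, 2.82 and 3.88 in HOMO CB, a change of −0.87 ± 0.224 (adjusted p = 0.0295). The CC libraries had 9.70, 8.49 and 5.77 CPM in WT and 3.84, 4.43 and 3.49 in HOMO, a change of −1.01 ± 0.222 (adjusted p = 0.0199). All 6 HOMO libraries were below all 6 WT libraries. The CB call was lost without WT CB replicate 1 or 3 (adjusted p = 0.134 and 0.0596) or HOMO CB replicate 2 or 3 (0.199 and 0.0690), and the CC call without WT CC replicate 1 or 2 (0.101 and 0.0692) or HOMO CC replicate 2 or 3 (0.101 and 0.115). The Ifi35 start, at 29.8 CPM on average, had −0.03 ± 0.113 in CB and −0.07 ± 0.113 in CC, and the 2 peaks inside Rtp4 did not pass.

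**Figure D3:**
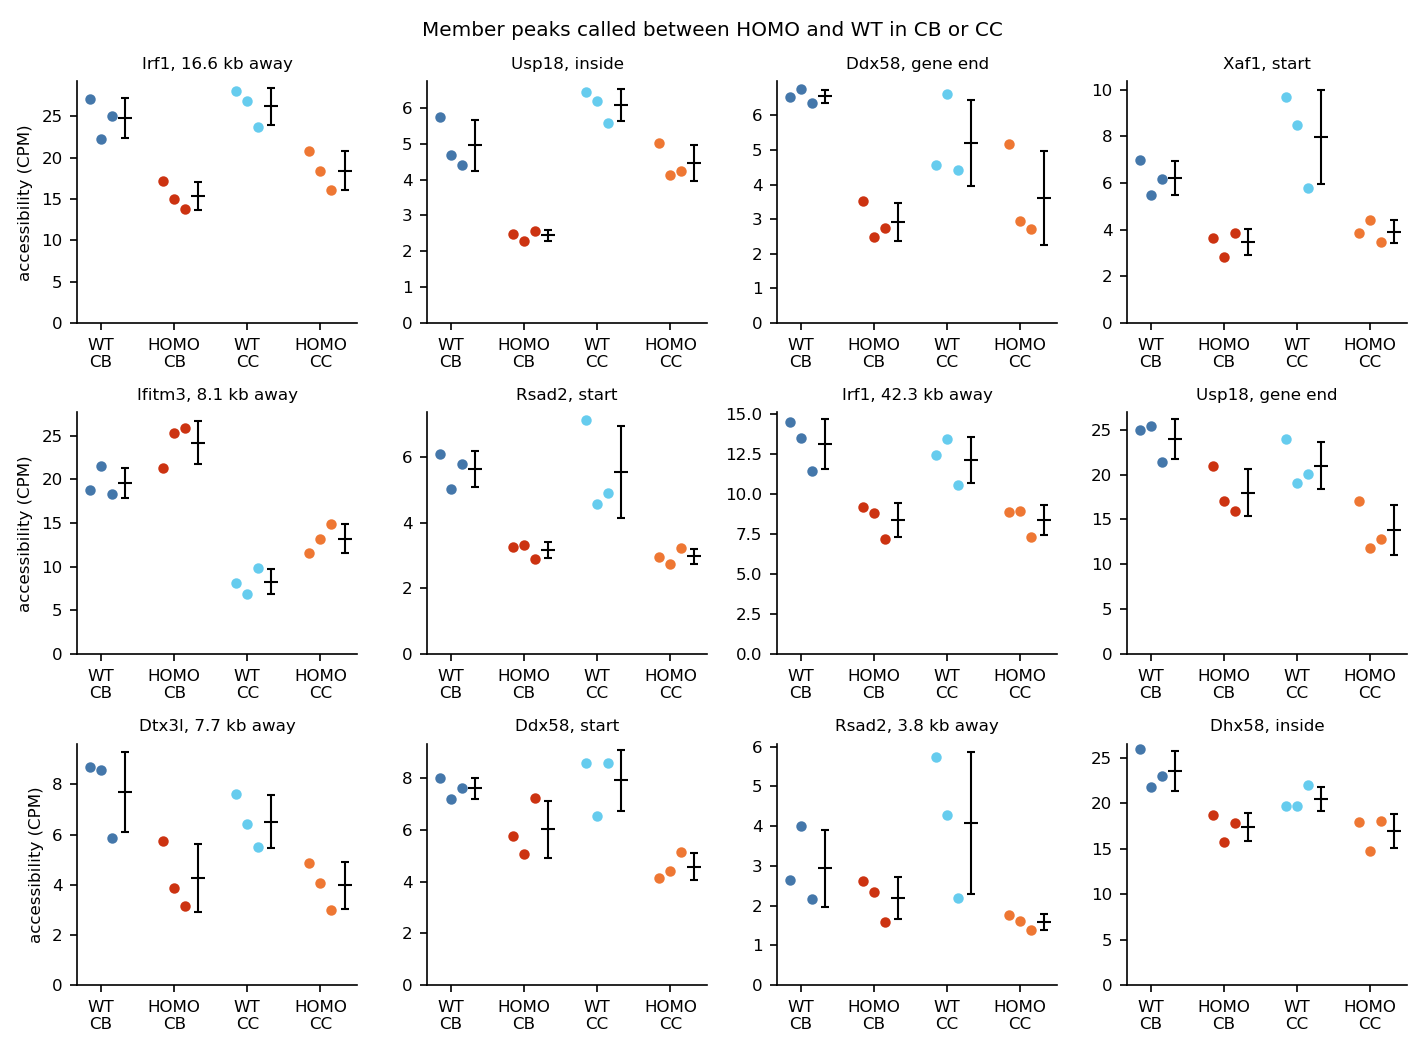
Accessibility in CPM of the 12 member peaks that passed the test between HOMO and WT in CB, CC or both, for each library (points), with the mean and SD of 3 libraries per group (black). Titles give the gene and the peak's place. The HOMO mean lies below the WT mean in every panel except the peak 8.1 kb from Ifitm3.

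Across the members, the leading gene-end peak (the one of highest mean CPM) was available for 27 genes. The 12 at 20 CPM or more ran from −0.37 to 0.11 in CB and from −0.36 to 0.18 in CC, and none passed. The 8 under 10 CPM all had negative values in CB, from −0.87 to −0.24, and 7 of 8 in CC; of these Rsad2 and Xaf1 fell in CB, and Rsad2, Xaf1 and Ddx58 in CC. Those with a mean under 5 CPM were Oasl2, Rsad2, Oas2 and Oas3, at 2.36 to 4.38 CPM.

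**Figure D4:**
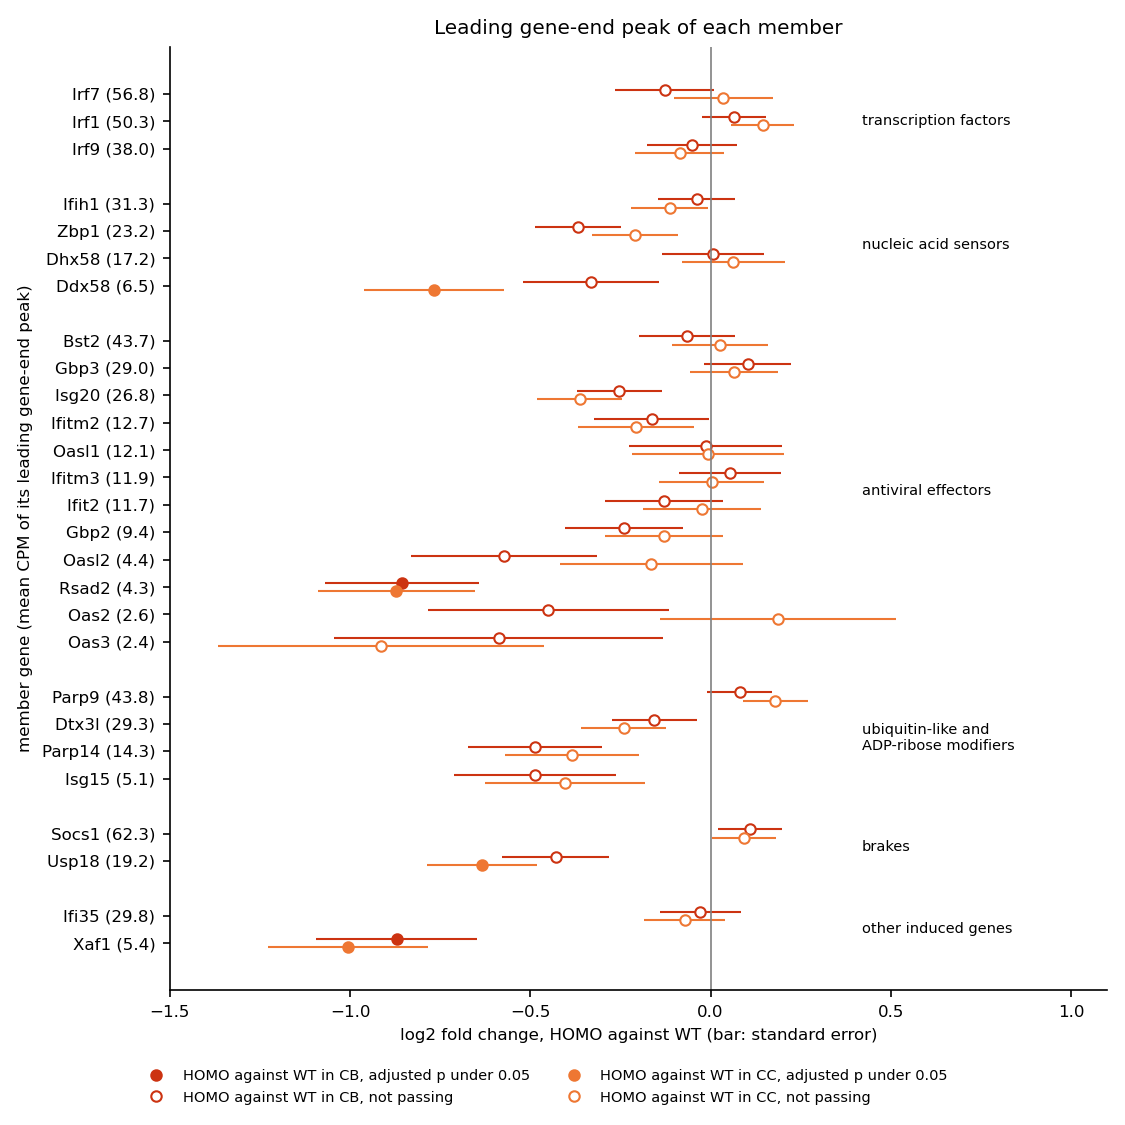
Log2 fold change of HOMO against WT at the leading gene-end peak of each of 27 members, grouped by role, with the standard error; filled points passed the test. Numbers beside the names are mean CPM over 12 libraries. The filled points are Ddx58 and Usp18 in CC, and Rsad2 and Xaf1 in both populations; Socs1, Irf1 and Parp9 lie at or above 0.

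The genotype effect was not shown to differ between CC and CB at any member peak. Of the 117 peaks 0 passed by edgeR's test of the difference of effects, 0 had an unadjusted p under 0.05, and DESeq2 and limma-voom also called 0. Over all 68689 peaks 0.0% passed, and at an unadjusted p under 0.05 the difference was negative at 394 and positive at 416. Low p-values were thus rare over all peaks, and their absence at the members carries little weight. This fit did not pair CB with CC libraries. With the replicate number as a block within genotype, 0% of the member peaks and 0% of all peaks passed. The calls that appear in one population and not the other, such as those of Ddx58 and Usp18, are therefore not shown to be differences between populations. For the Ddx58 peak inside the gene the difference was 0.58 ± 0.348, and for the Usp18 peak inside the gene 0.56 ± 0.284.

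Between the populations, the peaks downstream of Ifitm3 changed in both genotypes. In WT, 2 of the 117 member peaks were lower in CC than in CB and none was higher, where 2.08% and 3.35% of all peaks were called. The peak 9826 bp downstream of the annotated start of Ifitm3 (chr7:141000668-141001168) had 31.2, 32.5 and 27.2 CPM in WT CB and 12.9, 12.8 and 14.6 in WT CC, a change of −1.16 ± 0.130 (adjusted p = 0.000110). In HOMO it had 34.4, 36.8 and 37.8 CPM in CB and 12.4, 15.9 and 17.9 in CC, a change of −1.21 ± 0.128 (adjusted p = 1.84e-05). No CC library came near a CB library.

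The adjacent Ifitm3 peak, whose values by library are given above, changed by −1.21 ± 0.152 in WT (adjusted p = 0.000181) and by −0.86 ± 0.147 in HOMO (adjusted p = 0.00104). Both peaks kept these calls under every alternative tried. In HOMO, 3 member peaks were lower and 1 was higher in CC, against 2.44% and 4.78% of all peaks. The third lower peak, 11454 bp downstream of Ifitm3, had 21.2, 29.05 and 28.1 CPM in HOMO CB and 13.5, 20.1 and 19.6 in HOMO CC (−0.54 ± 0.141, adjusted p = 0.0210), with no overlap. It was lost without HOMO CB replicate 2 or 3 (adjusted p = 0.117 and 0.0935) or HOMO CC replicate 1 (0.0640). The higher one was the peak inside Usp18, at 2.28 to 2.56 CPM in HOMO CB and 4.13 to 5.03 in HOMO CC (0.84 ± 0.207, adjusted p = 0.0150), lost without HOMO CB replicate 2 or 3 (0.0789 and 0.0568).

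CB and CC libraries that share a genotype and a number deviated together, and with that number as a block the calls between populations grew to 11 member peaks in WT and 17 in HOMO, 5 of them in both. The block raised the share of all peaks called to 22.1% and 22.2%. In WT, 9 of the 11 were lower and 2 higher in CC, and 5 of the 11 were Ifitm3 peaks, including its gene-end peak (−0.33, adjusted p = 0.0391). In HOMO, 6 of the 17 were lower and 11 higher, among them 4 of the 7 Usp18 peaks, of which 3 were higher and the gene-end peak was lower.

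**Figure D5:**
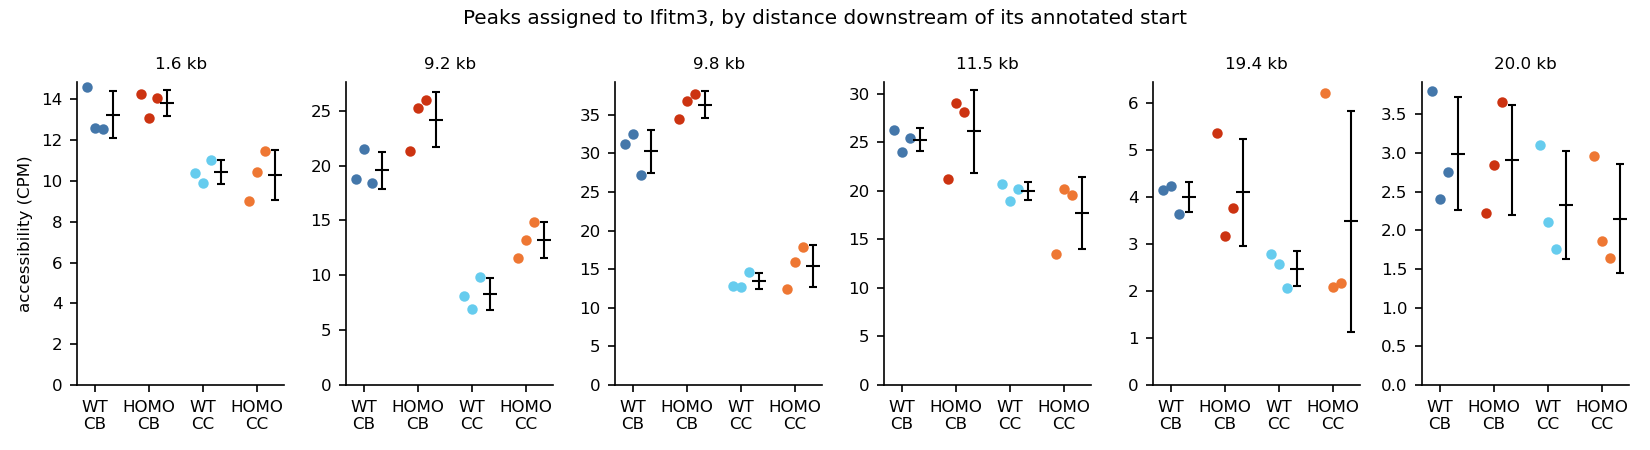
Accessibility in CPM of the 6 peaks assigned to Ifitm3, each panel titled by its distance downstream of the annotated start, for each library (points) with the mean and SD of 3 libraries per group (black). At 9.2 and 9.8 kb the CC libraries lie well below the CB libraries in both genotypes, while at 9.2 kb the HOMO CC libraries lie above the WT CC libraries.

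Other genes of the pathway were taken from 5 lists that exclude the 36 members. The 9 receptors and kinases held 98 peaks, of which 5 fell and 2 rose in HOMO CB and 1 fell and 2 rose in HOMO CC. Ifnlr1, the receptor chain for type III interferon, fell at its start, from 18.2, 20.2 and 19.2 CPM in WT CB to 14.1, 11.6 and 12.1 in HOMO CB (−0.62 ± 0.128, adjusted p = 0.00929), and Il10rb, its partner chain, fell from 39.2, 30.9 and 42.9 to 24.2, 27.9 and 27.6 (−0.50 ± 0.117, adjusted p = 0.0175). A peak 13650 bp upstream of Ifngr2, a chain of the interferon gamma receptor, fell (−0.97 ± 0.221, adjusted p = 0.0161).

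Jak1, the kinase shared by these receptors, moved both ways. A peak inside the gene (chr4:101169606-101170106) had 2.05, 2.29 and 2.65 CPM in WT CB and 10.2, 6.73 and 5.52 in HOMO CB (1.61 ± 0.291, adjusted p = 0.00472). It also rose in CC, from 2.41, 3.01 and 2.22 to 9.46, 6.44 and 4.04 CPM (1.31 ± 0.291, adjusted p = 0.0207). A neighboring peak inside the gene rose in both populations (0.60 and 0.69), whereas the gene-end peak 618 bp after the start fell in CC, from 15.9, 14.9 and 16.9 to 10.9, 8.41 and 8.40 CPM (−0.82 ± 0.184, adjusted p = 0.0214).

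The 9 other transcription factors held 125 peaks, of which 1 fell and 2 rose in CB and 0 fell and 1 rose in CC. A peak 622 bp beyond the end of Irf8, a regulator of germinal center B cells, rose by 0.48 ± 0.128 in CB and 0.53 ± 0.128 in CC (adjusted p = 0.0337 and 0.0295). A weakly open peak 30665 bp from Irf2, a repressor of the response, rose in CB (0.94 ± 0.269, adjusted p = 0.0474). Its mean was 1.78 CPM in WT CB and 3.60 in HOMO CB.

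The sensors and adaptors (11 of 13 listed genes, 56 peaks) had 3 peaks that fell in CB and 1 in CC, and none that rose. The start of Ikbke, the kinase that activates Irf3 and Irf7, had 9.22, 7.22 and 8.16 CPM in WT CB and 3.93, 2.36 and 2.60 in HOMO CB (−1.58 ± 0.206, adjusted p = 0.000781). In CC it fell from 9.70, 9.45 and 8.79 to 5.32, 4.69 and 4.09 CPM (−1.02 ± 0.198, adjusted p = 0.0116). The groups were far apart in both, and the CB call held on omission of any library. Nod1, a sensor of bacterial cell wall, fell at 2 peaks in CB (−0.87 ± 0.196 and −0.65 ± 0.181, adjusted p = 0.0152 and 0.0438).

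The 10 further brakes (95 peaks) had 2 peaks that fell in CB, and 1 that fell and 1 that rose in CC. Ptpn1, a phosphatase that acts on Jak kinases, fell 823 bp after its start in CB (−0.59 ± 0.147, adjusted p = 0.0259) and CC (−0.72 ± 0.148, adjusted p = 0.0151). A peak 48022 bp from Tnfaip3 fell in CB (−0.64 ± 0.180, adjusted p = 0.0439), and a peak 13734 bp from Socs3 rose in CC (0.49 ± 0.121, adjusted p = 0.0313). The 52 other induced genes, of which 31 held 132 peaks, had 6 peaks that fell and 1 that rose in CB. In CC edgeR called 0, with 13 lower and 12 higher at an unadjusted p under 0.05. Of all 68689 peaks, 6837 were lower and 4958 higher in CC at that level. Besides Cmpk2, the start of Adar, an RNA-editing enzyme, fell from 14.1, 13.5 and 11.7 to 8.38, 6.73 and 6.68 CPM in CB (−0.88 ± 0.199, adjusted p = 0.0153). Mov10, a helicase, also fell (−0.57 ± 0.127, adjusted p = 0.0143), and a peak 35372 bp from Ly6e rose (0.51 ± 0.133, adjusted p = 0.0316). Over all 5 lists, 17 of 506 peaks fell and 5 rose in CB and 3 fell and 4 rose in CC, with medians of −0.01 and 0.07. The background over all peaks was 3.85% lower and 0.779% higher in CB, and 2.17% and 0.578% in CC. Apart from the CB calls of Ikbke and of the 1.61 change at Jak1, each of these calls was lost on omission of at least 1 library of that population.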

How the data were processed

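The authors deposited 1 table of raw read counts for 68689 peaks of 501 bases in 12 libraries. The submitters' processing notes name FastQC, BWA, deepTools, R 4.2.1 and mm10, without roles; the peak caller, duplicate handling and any shift for the transposase were not given in the sources used here. All columns were mapped to samples by name (0 unmapped).

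Peaks were assigned to RefSeq gene spans of GRCm38.p6. The deposited counts were scaled by TMM factors and fitted for all 12 libraries together with edgeR 4.0.16 (quasi-likelihood test, filterByExpr, R 4.3.3), 1 coefficient per group, with Benjamini-Hochberg adjustment over all peaks. CPM are counts relative to the library totals scaled by the same factors. The fit was tested on simulated data over 68689 peaks, with 50 peaks changed at each fold. It called 22.0% of 1.5-fold changes in each population. It called 54.0% of 2-fold and 92.0% of 3-fold changes in CB and 68.0% and 82.0% in CC. The simulated libraries were drawn independently, without the link between CB and CC libraries of 1 number. Far fewer peaks were changed than the 2643 lower and 535 higher called in CB, so these rates may not carry over. limma 3.58.1 (voom), DESeq2 1.42.0, Python 3.11.15, numpy 2.4.6, pandas 2.3.3 and matplotlib 3.10.9 were also used.

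The number of a library pairs CB with CC within a genotype: the deviations from the group means correlated at 0.33 to 0.69 in 6 of 6 such pairs. Between genotypes libraries of 1 number correlated at −0.03 to 0.52 and were not treated as pairs.

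Peaks named are member peaks called between genotypes or, up to 8 in each direction, between populations, each member's leading gene-end peak, and up to 3 called peaks per pathway list and direction. Other peaks named were chosen after their values were seen, and the peak lower in HOMO CB among the other transcription factors is not reported here beyond its count. The members and lists were chosen with earlier results of these data known. Alternatives covered normalization, test, filter, samples, depth as a covariate, the replicate block, each library in turn and the assignment distance.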

Additional observations from a re-analysis of the deposited data

How the results depend on the processing

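Of the calls between genotypes, 1 of 8 in CB (the Irf1 peak at 24497 bp) and 0 of 7 in CC held on omission of every library. Leaving out 1 library gave 1 to 9 member peaks in CB and 0 to 9 in CC. Of all peaks it gave 0.496% to 5.98% in CB and 0.0247% to 4.97% in CC. In CB there were 2 without WT replicate 1, 5 without WT replicate 2, 1 without HOMO replicate 2 and 3 without HOMO replicate 3; in CC there were 0 without WT replicate 1, HOMO replicate 2 or HOMO replicate 3 and 1 without WT replicate 2. The share of all peaks called fell with them, to 1.01%, 3.20%, 0.496% and 1.17% in CB in the same order. In CC it fell to 0.480%, 0.0247%, 0.319% and 0.875%. Without both WT libraries numbered 2 there were 4 in CB and 0 in CC, against 2.42% and 0.473% of all peaks. With only the 6 libraries of a population CC had 1, against 1.98% of all peaks. In CB limma-voom called 13 (12 lower, 1 higher), against 9.32% of all peaks, and 14 were called with library depth as a covariate, against 11.8%. With the replicate number as a block over all groups, 14 were called in CB and 14 in CC (11 lower, 3 higher), against 13.2% and 10.4% of all peaks. With the peaks assigned elsewhere, an alternative chosen after seeing the data, CC had 11. Between populations, the calls in WT and HOMO were 4 and 10 with depth as a covariate (11.4% and 13.1% of all peaks). They were 4 and 8 with the block over all groups (12.7% and 14.4%), and 11 and 17 with the replicate block within genotype (22.1% and 22.2%). Omission of 1 library gave 2 to 5 in HOMO, against 2.94% to 8.05% of all peaks. The members' median relative to their bins was 0.0936 in CB with depth as a covariate and −0.000412 with gene ends within 500 bp, and ran from −0.0145 to 0.0770 in CB and from −0.0301 to 0.0830 in CC on omission of 1 library. No value changed direction among called results, and the difference of effects stayed at 0 calls under each alternative. The shallowest library averaged 93.6 counts per peak, and the part of depth in the calls at weakly open peaks was not tested.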

Other observations

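Some peaks at the ends of member genes fell to another gene under the rule, and these were looked up after values were seen. There were 7 such peaks at 5 members, of which 1 fell in CB and 4 in CC, and none rose. The Mx1 and Mx2 peaks among them are intergenic by the classes used here, and the others are gene-end peaks. Of all gene-end peaks 9.17% and 5.58% were called lower in CB and CC, and of all 20854 intergenic peaks 400 and 190. Since the 7 peaks were looked up after values were seen, nothing is read from their counts. Eif2ak2, which encodes the RNA-activated kinase PKR, had a peak 8 bp from its annotated start, assigned to Gm26637 (chr17:78882330-78882830). It had 12.9, 12.04 and 9.09 CPM in WT CC and 8.58, 5.03 and 4.60 in HOMO CC, with no overlap and a log2 fold change of −0.99 (adjusted p = 0.0247 by edgeR). In CB it had 11.5, 12.4 and 9.22 CPM in WT and 8.78, 6.02 and 5.58 in HOMO, also apart, and the change of −0.75 did not pass (adjusted p = 0.0600). A second peak, inside the gene and 578 bp from that start, fell in CC (−1.11, adjusted p = 0.0331). The CC calls were lost without WT CC replicate 1 or 2 (adjusted p = 0.106 and 0.0805 for the first, 0.107 and 0.113 for the second) or HOMO CC replicate 2 or 3 (0.199 and 0.147, 0.245 and 0.193), and that of the second without WT CB replicate 1 (0.0515).

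Mx2, a GTPase that blocks viruses and is a transcribed pseudogene in the gene table, had a peak 954 bp from its nearer end (chr16:97534877-97535377) that fell in both populations. It had 4.83, 5.04 and 4.51 CPM in WT CB and 2.88, 1.33 and 2.20 in HOMO CB (−1.26, adjusted p = 0.00884), and 4.42, 4.45 and 5.64 in WT CC and 1.77, 2.09 and 1.72 in HOMO CC (−1.38, adjusted p = 0.0100). The groups did not overlap in either. The CB call was lost without HOMO CB replicate 2 (adjusted p = 0.0970) and the CC call without HOMO CC replicate 2 or 3 (0.0808 and 0.0647). A second Mx2 peak, 96 bp from that end, fell in CC (−1.06, adjusted p = 0.0156), a call lost without WT CC replicate 1 (0.0821) or HOMO CC replicate 2 or 3 (0.0992 and 0.0991). At the Stat2 start, assigned to Apof and at 49.2 CPM on average, the changes of −0.01 in CB and −0.01 in CC did not pass, nor did those at Ifit1 (−0.42 and −0.46).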
